A study of Mus musculus with 18 samples.

Results

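The SR splicing factors of mouse fibroblasts were followed through the mRNA and circRNA libraries of WT and XPO4 knockout (KO) NIH/3T3 cells, an established line of mouse embryonic fibroblasts. The members were chosen by gene symbol and were Srsf1, Srsf2, Srsf3, Srsf4, Srsf5, Srsf6, Srsf7, Srsf9, Srsf10 and Srsf11, 10 of the 55401 genes counted. The mRNA was sequenced in 3 WT and 3 KO libraries. After RNase R, an enzyme that digests linear RNA, circRNAs were sequenced in 12 libraries, with 2 for every combination of genotype and RNA source (nucleus, cytoplasm or whole cell, the last called total RNA). XPO4 is an exportin, a carrier of cargo from nucleus to cytoplasm. The KO cells were a CRISPR-Cas9 line with the same edit in both copies of the gene, and the untreated parental cells were the controls. All cells were grown in the same medium with serum. A single knockout line was compared with its parent, so a difference between these lines and an effect of the lost gene cannot be told apart.

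SR proteins bind exonic enhancer sequences through an RNA recognition motif (RRM) and recruit the splicing machinery through a tail rich in arginine and serine, the RS domain. Kinases phosphorylate this tail, a dedicated importin brings the phosphorylated protein into the nucleus, and several members shuttle with mature mRNA to the cytoplasm. The genes are known for autoregulation through poison exons, cassette exons whose inclusion places an early stop codon in the mRNA and sends it to nonsense-mediated decay (NMD).

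The genotype of the mRNA libraries rests on the sample titles alone. The column heading inside each of the 6 count files names the other genotype, and the titles were followed. The targeted gene did not settle the matter. Xpo4 mRNA stood at 3.08, 2.93 and 2.89 FPKM (fragments scaled to exon length in kilobases and to library depth) in WT and at 3.72, 2.62 and 3.77 FPKM in KO, so the groups overlapped (log2 fold change 0.18, SE 0.110, adjusted p = 0.193 in edgeR). Without KO replicate 2, Xpo4 was higher in the libraries titled KO (log2 fold change 0.34, adjusted p = 0.000252 in edgeR). Under the headings, that would be lower Xpo4 mRNA in KO. An edit that stops the protein need not lower the mRNA, so this gene is a weak check of the labels. Every direction of mRNA change below is that of the libraries titled KO and would turn round if the headings were right.

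Depth lay between 16974062 and 22057323 counted fragments. Replicates of a genotype differed by more than sampling noise, with a chi-square per gene of 2.92 to 4.65 between WT libraries, 3.47 between KO replicates 1 and 3, and 9.74 and 11.3 for the pairs with KO replicate 2, where sampling alone gives about 1. KO replicate 2 thus stood apart. The extraction text of the labels speaks of blood, whereas the cell line entry names NIH/3T3. All 14 fibroblast markers were above 1 FPKM, with a summed level of 2890 to 2989 in WT and 2888 to 3000 in KO. Single markers differed in either direction within that sum. Mean levels in WT and KO were 89.7 and 26.2 FPKM for Dcn and 15.5 and 5.17 FPKM for Lum, but 63.2 and 115 FPKM for Thy1 and 134 and 232 FPKM for S100a4. Their part in the SR results was not tested. None of 16 blood cell markers reached 1 FPKM, and 6 of them were at 0 in all libraries (summed level 0.856 to 1.01 FPKM in WT and 1.53 to 1.67 FPKM in KO). Of 10 epithelial and endothelial markers, 2 were at 0 and Krt14 alone passed 1 FPKM, in a summed level of 2.89 to 3.16 FPKM in WT and 0.434 to 0.874 FPKM in KO. Nothing in the sources says that libraries came from separate cultures, so the p-values measure the spread between these libraries, which may be technical.

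NMD transcripts were common in the annotation of the members. In GENCODE, 9 of the 10 genes had at least 1 transcript classed as a target of NMD, Srsf10 being the exception, against 28.9% of the 12156 protein-coding genes tested. A transcript with a retained intron was annotated for 8 of 10, against 59.2%. The members also had more annotated transcripts, a median of 7.5 against 5. No background matched for transcript number or mRNA level was computed, so these features need not be traits of the family. Some cassette exons of NMD transcripts overlapped no exon of a coding transcript. They lay in Srsf3 (chr17:29039454-29039909, 456 bp), Srsf7 (chr17:80204622-80205081, 460 bp), Srsf9 (chr5:115328347-115328704, 358 bp), Srsf4 and Srsf11. Transcripts with a retained intron were not checked for them. The deposited counts add all exons of a gene, so productive and poison isoforms could not be separated in the mRNA results.

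The promoters of the members were rich in GC against those of all RefSeq genes, whether or not these are expressed here. No background of expressed genes was computed, so this need not be a trait of the family. In RefSeq windows of 300 bases around the annotated start (250 before it and 50 after it, GRCm38.p6), found for 10 of 10 members, the median GC content was 68.7% (56.0% for Srsf5 to 77.7% for Srsf4), against 52.7% over 27025 genes. The median number of CpG dinucleotides was 35 against 7. The GC box GGGCGG, on either strand, was in 9 of 10 windows and in 35.9% of all promoters. The TATA box TATAAA was in the windows of Srsf2 and Srsf3 and in 14.2% of all. The windows follow RefSeq starts, and the gene models used for counting can start earlier. That of Srsf3 starts at chr17:29032628, before its TATAAA. That of Srsf10 starts at chr4:135855747, before its whole window. CCAAT was in 4 of 10 and 37.9% of all, the ETS motif CCGGAAG in 4 of 10 and 9.12%, the CRE motif TGACGT in 3 of 10 and 7.64%, and the E-box CACGTG in none of 10 and 7.24%. GC-rich windows hold GC-rich motifs more often, and these matches are letters in a window, not measured binding. The last 150 bases before the start are printed for the 4 genes whose mRNA passed the test between genotypes, with the motifs in capitals on whichever strand they lay. CCGCCC is the GC box, ATTGG the CCAAT box and ACGTCA the CRE motif on the other strand. Those of Srsf2 (chr11:116853095-116853244, minus strand), Srsf3 (chr17:29032510-29032659, plus), Srsf7 (chr17:80207306-80207455, minus) and Srsf9 (chr5:115327027-115327176, plus) read, 5′ to 3′:
Srsf2: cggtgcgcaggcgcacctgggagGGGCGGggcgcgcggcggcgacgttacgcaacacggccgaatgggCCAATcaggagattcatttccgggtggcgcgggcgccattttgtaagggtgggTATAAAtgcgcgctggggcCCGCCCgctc
Srsf3: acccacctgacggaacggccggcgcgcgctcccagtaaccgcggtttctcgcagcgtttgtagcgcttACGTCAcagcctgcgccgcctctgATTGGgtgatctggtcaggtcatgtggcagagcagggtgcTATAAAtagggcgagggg
Srsf7: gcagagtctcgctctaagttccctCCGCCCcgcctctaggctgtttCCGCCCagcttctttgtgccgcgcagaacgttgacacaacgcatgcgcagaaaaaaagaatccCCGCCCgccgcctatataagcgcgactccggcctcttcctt
Srsf9: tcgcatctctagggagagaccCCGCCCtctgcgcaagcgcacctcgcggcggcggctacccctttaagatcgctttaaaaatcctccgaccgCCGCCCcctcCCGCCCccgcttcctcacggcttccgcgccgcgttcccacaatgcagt

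All 10 genes were expressed in every library. Mean FPKM over the 6 libraries was highest for Srsf5 (126) and Srsf2 (121), followed by Srsf7 (72.9), Srsf6 (69.0), Srsf1 (66.6), Srsf3 (55.8), Srsf9 (52.7), Srsf11 (33.3), Srsf10 (24.7) and Srsf4 (8.21). Neighbours in this order were not always distinct. Srsf5 was above Srsf2 in 3 of 6 libraries and Srsf3 above Srsf9 in 3 of 6, while Srsf7 against Srsf6 and Srsf6 against Srsf1 held their order in 5 of 6 with overlapping ranges. The other neighbours kept their order in 6 of 6 libraries without overlap. The steps were 1.66-fold from Srsf2 to Srsf7, 1.19-fold from Srsf1 to Srsf3, 1.58-fold from Srsf9 to Srsf11, 1.34-fold from Srsf11 to Srsf10 and 3.01-fold from Srsf10 to Srsf4. Even Srsf4 was above 78.2% of genes with a count in these libraries, and Srsf5 above 98.8%. Reads that fit several places were not counted, which bears on this order: stretches of at least 100 bp with at least 95% identity elsewhere in the genome made up 58.9% of the exonic bases of Srsf10, 32.8% of Srsf5, 24.8% of Srsf3, 8.65% of Srsf2, 5.10% of Srsf7 and 3.34% of Srsf11, and none of the rest. The levels of these genes may be understated. So may those of Srsf4, Srsf2 and Srsf1, where genes on the opposite strand cover 43.0%, 25.3% and 1.72% of the exonic bases. Reads that fit several genes were left out, which bears on the step to Srsf4 and the order of Srsf5 and Srsf2.

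**Figure D1:**
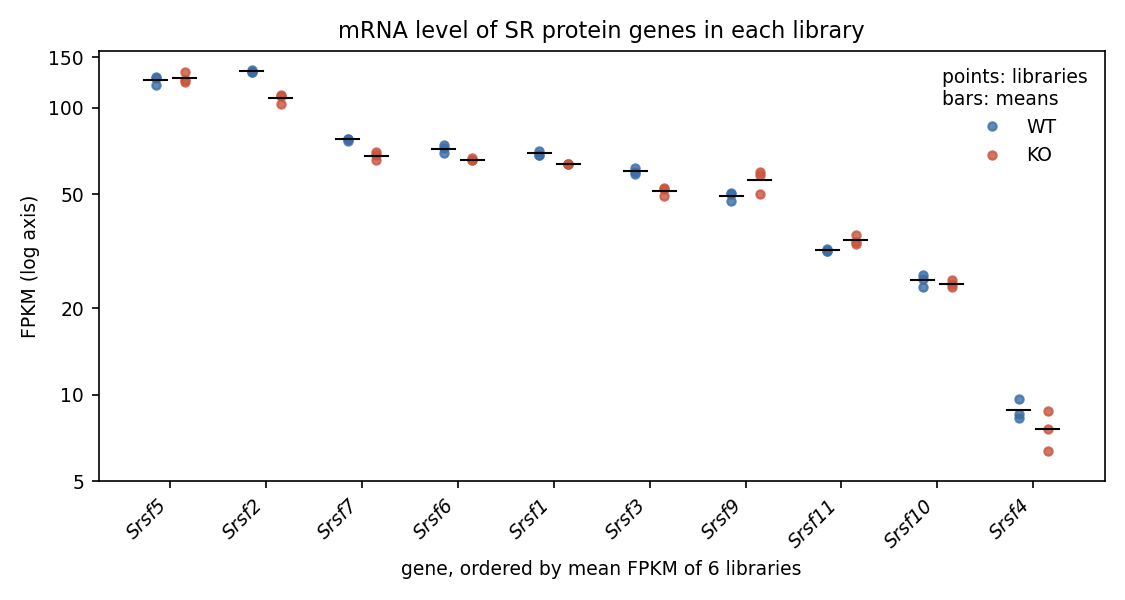
FPKM (log axis) of the 10 SR protein genes, ordered by their mean over 6 libraries, with 1 point per library (3 WT and 3 KO) and a bar at each group's mean. Srsf5 and Srsf2 lead at means of 126 and 121, Srsf4 is lowest at 8.21, and the groups stand furthest apart for Srsf2.

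In the KO libraries the SR mRNA pool was slightly smaller, and the shares of 6 of its 10 genes differed. The summed level of the 10 genes was 648, 660.5 and 654 FPKM in WT and 611, 613 and 597 FPKM in KO, so no KO library reached the lowest WT library. The group means were 654 ± 6.24 and 607 ± 8.84 FPKM (SD, n = 3 each), a ratio of 0.928. Srsf2 made up 20.5% of the pool in WT and 17.8% in KO, Srsf5 19.2% and 20.9%, Srsf9 7.53% and 9.22%, and Srsf11 4.88% and 5.70%. Srsf3 went from 9.20% to 8.47% and Srsf7 from 11.9% to 11.2%. The ranges of the share did not overlap between genotypes for these 6 genes, 3 with a smaller and 3 with a larger share in KO, and overlapped for the other 4. Shares of a sum are tied, so a smaller share of Srsf2 raises those of other members. The levels of Srsf5 and Srsf9 themselves overlapped between genotypes. No like figure over all genes was computed for the shares or for the summed level, so neither need be a trait of the members. Of all genes tested, 57.8% had levels that did not overlap between genotypes. By FPKM, which may understate both genes, Srsf2 was the most abundant SR mRNA in each WT library and Srsf5 in each KO library. In bulk RNA, less mRNA in every cell and fewer cells with much mRNA cannot be told apart.

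Whether XPO4 loss was accompanied by a change of the single genes was tested with edgeR's quasi-likelihood test over 14688 genes, with Benjamini-Hochberg adjustment. All 10 members passed the filter on low counts. Of these, 3 fell in KO (Srsf2, Srsf3 and Srsf7) and 1 rose (Srsf9), while 6 did not pass. The share of members called, 40.0%, was read against 48.7% of all genes tested, 25.1% being higher and 23.6% lower in KO, so calls among the members were no more frequent than elsewhere. The log2 fold change was below 0 for 7 members and above 0 for 3, with a median of -0.13 against -0.003 over all genes. The changes were small. None exceeded the 0.32 of Srsf2 in size, and the median size over all genes tested was 0.28. The libraries of the genotypes did not overlap for 6 members, 5 lower and 1 higher in KO, against 57.8% of all genes.

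**Figure D2:**
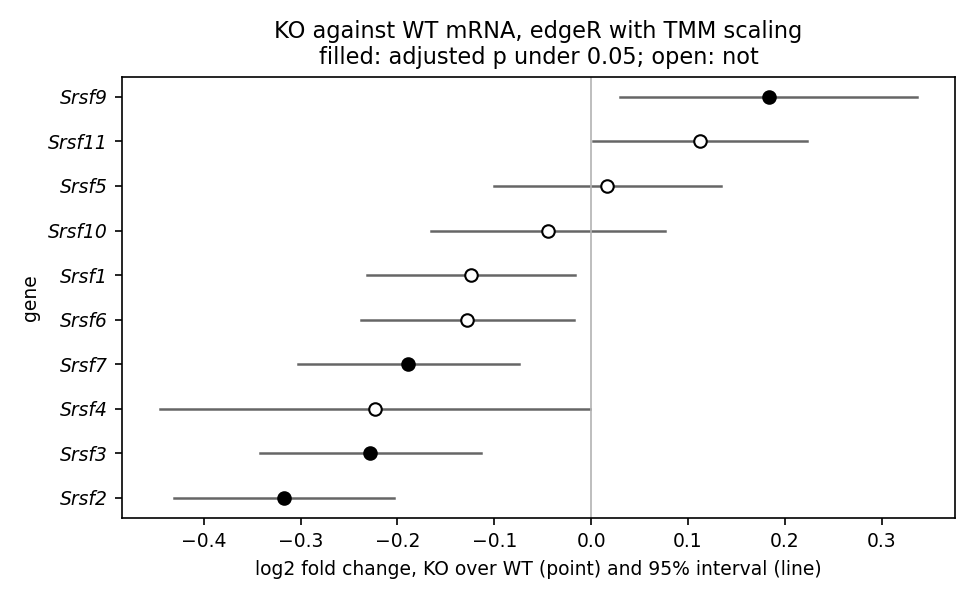
Log2 fold change of KO over WT for the 10 SR protein genes from edgeR (x axis), with points for the estimate, lines for its 95% interval, and filled points where the adjusted p was under 0.05. Srsf2, Srsf3 and Srsf7 are filled below 0 and Srsf9 above it, and the line of Srsf4 is the longest.

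The 3 genes that fell encode SR proteins with an RRM but without the additional degenerate RRM of the longer members. Srsf2 encodes a factor that is a classical marker of nuclear speckles and binds purine- and cytosine-rich enhancers. Its mRNA was 134, 136 and 134 FPKM in WT and 103, 110.0 and 111 FPKM in KO. Every KO library lay below every WT library, with means of 134 ± 1.19 and 108 ± 4.03 FPKM (log2 fold change -0.32, SE 0.0525, adjusted p = 0.000246 in edgeR). On the opposite strand, Mettl23 and Mfsd11 cover 25.3% of its exonic bases. The counting took no account of strand and left out reads that fit several genes, so this value came from the remaining bases.

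Srsf3, the smallest SR protein and an adaptor for mRNA export, had 58.8, 61.8 and 59.9 FPKM in WT and 52.2, 52.7 and 49.4 FPKM in KO. The groups did not overlap (log2 fold change -0.23, SE 0.0529, adjusted p = 0.00303 in edgeR). Srsf7, which carries a zinc knuckle beside its RRM and is likewise an export adaptor, had 76.9, 77.8 and 78.2 FPKM in WT and 68.7, 70.3 and 65.6 FPKM in KO. Again every KO library was lower (log2 fold change -0.19, SE 0.0529, adjusted p = 0.00960 in edgeR). The calls of Srsf2, Srsf3 and Srsf7 held under each of 11 other settings, with the highest adjusted p of 0.00301, 0.0238 and 0.0469.

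The members with an additional degenerate RRM were Srsf1, Srsf4, Srsf5, Srsf6 and Srsf9, of which Srsf9 alone passed the test. Srsf1, the founding member of the family, had 68.6, 71.0 and 68.7 FPKM in WT and 63.5, 63.9 and 63.9 FPKM in KO. The libraries did not overlap, yet the gene missed the threshold (log2 fold change -0.12, 95% interval -0.23 to -0.02, adjusted p = 0.0539 in edgeR). Srsf6 behaved alike, at 74.0, 69.8 and 72.4 FPKM in WT and 65.7, 66.7 and 65.7 FPKM in KO (log2 fold change -0.13, 95% interval -0.24 to -0.02, adjusted p = 0.0535 in edgeR). Both genes passed with the size factors of DESeq2 (adjusted p = 0.0488 and 0.0491 in edgeR), in DESeq2 itself (0.0418 and 0.0444) and without KO replicate 2 (0.0231 and 0.0167 in edgeR), which brought the number of lower members to 5.

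Srsf9, whose RS domain is short, was the member called higher. It had 47.5, 50.4 and 49.97 FPKM in WT and 58.2, 59.8 and 50.04 FPKM in KO. KO replicates 1 and 2 lay above all WT libraries, whereas KO replicate 3 lay among them (log2 fold change 0.18, SE 0.0710, adjusted p = 0.0469 in edgeR). The call was lost in DESeq2 (adjusted p = 0.0553) and on leaving out WT replicate 1 (0.156), 2 (0.0900) or 3 (0.0919) or KO replicate 1 (0.129) or 2 (0.0706), all in edgeR. Without KO replicate 3 it was at 0.00376.

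Srsf5, the member with the highest mean FPKM over the 6 libraries, did not separate the genotypes. Its levels were 120.4, 129 and 127 FPKM in WT and 133, 125 and 123 FPKM in KO (log2 fold change 0.02, 95% interval -0.10 to 0.13, adjusted p = 0.819 in edgeR). Srsf4, which has the longest RS domain of the family, was the least abundant and the most variable. Its levels were 9.64, 8.31 and 8.56 FPKM in WT and 8.79, 6.38 and 7.58 FPKM in KO, so the groups overlapped (log2 fold change -0.22, 95% interval -0.44 to -0.001, adjusted p = 0.0894 in edgeR). It passed without a filter on low counts (adjusted p = 0.0426), with the replicate number as a block (0.0298) and without KO replicate 1 (0.0198), all in edgeR. Without KO replicate 2, its lowest library, the log2 fold change was -0.11 (adjusted p = 0.290 in edgeR), and without WT replicate 1, its highest, -0.16 (0.284). Gm12992 covers 43.0% of its exonic bases on the opposite strand, the largest such overlap among the members.

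Srsf10 and Srsf11 are the least typical members. Srsf10 turns into a splicing repressor when it is dephosphorylated, as in heat shock and mitosis. Its mRNA was 26.2, 25.3 and 23.8 FPKM in WT and 23.7, 24.4 and 25.1 FPKM in KO, with overlapping groups (log2 fold change -0.04, 95% interval -0.17 to 0.08, adjusted p = 0.537 in edgeR). Srsf11 had 32.2, 31.8 and 31.8 FPKM in WT and 34.1, 33.7 and 36.0 FPKM in KO. Each KO library was higher, and the gene missed the threshold (log2 fold change 0.11, 95% interval 0.002 to 0.22, adjusted p = 0.0863 in edgeR), which it passed without KO replicate 2 (adjusted p = 0.0215 in edgeR).

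The genes that act on SR proteins or beside them were described from 4 lists, by the same fit and in CPM (counts scaled to library depth, here with TMM). Of the SR kinases, phosphatases and importer, 13 of 14 were tested, 2 rose and 4 fell in KO, with a median of -0.08 on the log2 scale that lay between -0.10 and -0.03 when a library was left out, nearest 0 without KO replicate 3. Clk1, a kinase that releases SR proteins from speckles, had 192, 194 and 182 CPM in WT and 145, 137 and 147 CPM in KO (log2 fold change -0.41, adjusted p = 4.42e-05 in edgeR). Tnpo3, the importin of phosphorylated SR proteins, had 163, 158 and 166 CPM in WT and 143, 134 and 137 CPM in KO (log2 fold change -0.23, adjusted p = 0.00288 in edgeR). Prpf4b, a kinase of the spliceosome, changed by -0.22 on the log2 scale (adjusted p = 0.0143 in edgeR, and 0.0590 without WT replicate 1). Without that library 2 genes of this list fell. The main SR kinases of the cytoplasm did not pass, with log2 fold changes of -0.10 for Srpk1 and -0.04 for Srpk2.

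Among SR-related and accessory splicing proteins, 27 of 28 genes were tested, 1 rose and 14 fell, with a median of -0.15. The 2 scaffold proteins of nuclear speckles were among those that fell. Srrm2 had 1275, 1155 and 1175 CPM in WT and 957, 744 and 1004 CPM in KO (log2 fold change -0.41, adjusted p = 0.00187 in edgeR). Son had 413, 375 and 373 CPM in WT and 313, 246 and 311 CPM in KO (log2 fold change -0.42, adjusted p = 0.00104 in edgeR). For both, KO replicate 2 was the lowest library. Rsrc1, a small RS-rich protein, was the gene that rose, from 55.1, 67.8 and 62.2 CPM to 85.5, 91.0 and 91.4 CPM (log2 fold change 0.53, adjusted p = 4.87e-05 in edgeR).

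The hnRNP and PTB proteins, which often oppose SR proteins at splice sites, fell in 10 and rose in 3 of 26 cases, with a median of -0.12. Ptbp2, a repressor of neuronal exons, changed most, from 149.7, 152 and 155 CPM in WT to 85.4, 81.2 and 85.0 CPM in KO (log2 fold change -0.86, adjusted p = 3.29e-08 in edgeR). Hnrnpa1, the classical antagonist of Srsf1, had 1429.97, 1519 and 1469.97 CPM in WT and 1032, 1067 and 1045 CPM in KO (log2 fold change -0.49, adjusted p = 2.90e-06 in edgeR). Hnrnph3 rose from 19.5, 21.1 and 21.4 CPM to 30.2, 29.3 and 27.8 CPM (log2 fold change 0.49, adjusted p = 0.000148 in edgeR).

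All 15 factors of NMD were tested, of which 2 rose and 2 fell, with a median of -0.02 that was 0.02 without KO replicate 2, -0.05 without WT replicate 1 and -0.04 without KO replicate 1 or 3. Smg1, the kinase of Upf1, changed by -0.49 on the log2 scale (adjusted p = 0.00189 in edgeR). Rbm8a, a core part of the exon junction complex, rose by 0.33 (adjusted p = 0.000901 in edgeR). The share of genes called was 46.2% among the kinases, phosphatases and importer, 55.6% among SR-related proteins, 13 of 26 among hnRNP and PTB proteins and 26.7% among NMD factors, against 48.7% of all genes.

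**Figure D3:**
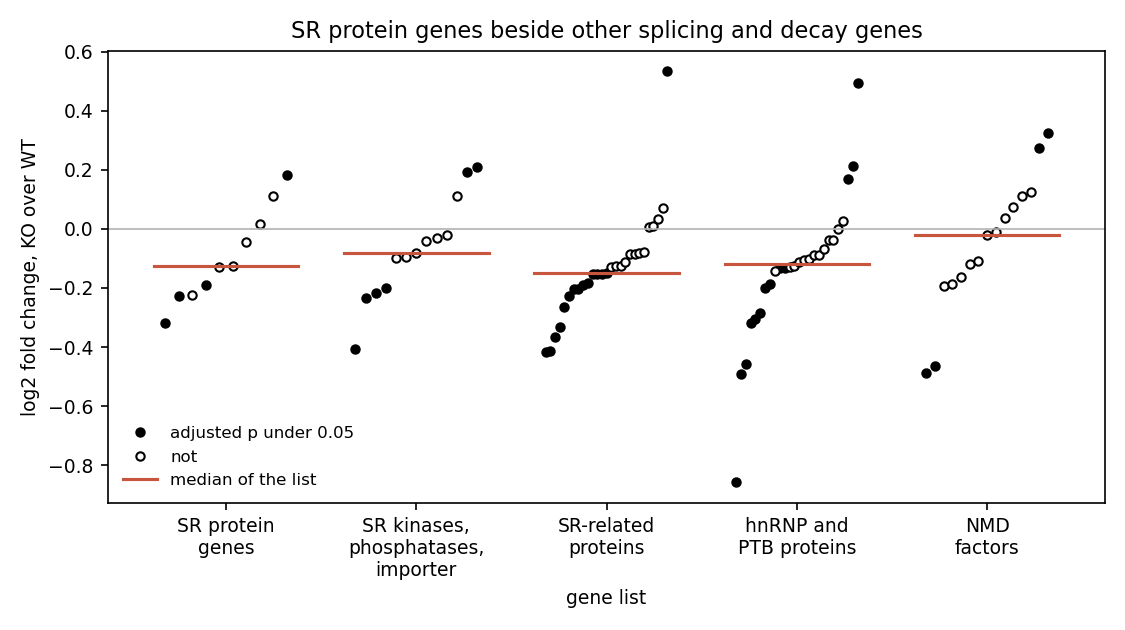
Log2 fold change of KO over WT (y axis) for each tested gene of 5 lists, sorted within the list, with filled points at an adjusted p under 0.05 in edgeR and a bar at the median of the list. The medians over all 6 libraries run from -0.15 for SR-related proteins to -0.02 for NMD factors.

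The genes whose CPM profile over the 6 libraries was nearest to that of Srsf1, by root mean square difference of centred log2 CPM, were Ccng1 (0.00888), Usp1 (0.0116) and Hspa9 (0.0150). Their log2 fold changes were -0.13, -0.11 and -0.13 (adjusted p = 0.0481, 0.102 and 0.0434 in edgeR). The choice by profile over both genotypes fixed these near the value of Srsf1. The calls of Ccng1 and Hspa9 did not hold under all other settings.

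CircRNAs are named here by gene and number. They are circles closed by a backsplice from the end of an exon to the start of the same or an earlier exon, and a junction read spans that join. Of the 16164 circRNAs listed over 12 libraries, 6 lay in SR protein genes, 4 in Srsf1 and 1 each in Srsf4 and Srsf11. The ends of all 6 lay exactly on exon edges, annotated transcript starts and ends included. Of all listed circRNAs, 97.1% had at least their start on such an edge. The other 7 members had none, whereas 40.1% of the 6075 genes with at least the mean FPKM of Srsf4 held a circRNA, so 3 hosts among 10 members was not above this background. The junctions are printed below, 15 bases from the end of the upstream side of the join in lower case and 15 bases from its downstream side in capitals (GRCm38, 5′ to 3′ on the strand of the gene), to show which circles share an end:
circSrsf1-1: gagtggttgtctctgAGACGCGGAAGATGC
circSrsf1-2: ataatggaggcaatgAGACGCGGAAGATGC
circSrsf1-3: ataatggaggcaatgGACTGCCTCCGAGTG
circSrsf1-4: ataatggaggcaatgGGAGAAACTGCCTAC
circSrsf4-1: agttgtaggacaaagTCTGTTATGTTCTGA
circSrsf11-1: cacatccaaagccagTGACTCACCTTTGCC

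The Srsf1 circles used 2 end points and 3 start points within the gene. circSrsf1-1 (chr11:88048490-88048674, plus strand) is exon 2 of a coding transcript, 185 nt long. circSrsf1-2 (chr11:88048490-88050095) opens at the same exon and closes at a later one, and no annotated transcript holds both edges. circSrsf1-3 (chr11:88049043-88050095) corresponds to exons 2 and 3 of an NMD transcript, 292 nt spliced. circSrsf1-4 (chr11:88049412-88050095) corresponds to exon 1, of 684 nt, in a transcript with a retained intron. Its start is thus the annotated start of that transcript and not a splice site in it. circSrsf4-1 (chr4:131884276-131886304, plus strand) has a spliced length of 589 nt and consists of exons 2 to 4 of an NMD transcript. These are exons of 207, 184 and 198 bp (from 131884276, 131885309 and 131886107) that GENCODE places in NMD transcripts of Srsf4. They overlap no exon of a coding transcript of the gene. Its transcript with a retained intron was not checked for them. circSrsf11-1 (chr3:158016322-158026858, minus strand) holds exons 2 to 8 of a coding transcript, 729 nt spliced.

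Junction reads of these circles were few, 78 over the 12 libraries. With 2 libraries per group no test was made. The lists share 82.0% to 95.8% of circRNAs between the libraries of a group, single reads included. The study's methods speak of merging the circRNAs of replicates and give no filter on the lists. A circle that is absent may have been left out of a list, so no limit is set on it. Of the circRNAs in the cytoplasmic and the total lists, 49.8% and 44.9% were in both, and none of the 6 SR circles was. No SR circle was listed in the nucleus, where the libraries held 2189 to 4383 junction reads, against 50341 to 81941 elsewhere.

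In the cytoplasm the only SR circles were from Srsf1, with 1 to 12 reads per circle and library. Their reads differed between genotypes, as did those of most circRNAs there. circSrsf1-1 was read 1 and 2 times in the WT libraries, against 8 and 12 times in the KO libraries. circSrsf1-2 went the other way, with 4 and 7 WT reads against 1 and 1 KO reads. circSrsf1-4 did so too, with 8 and 7 WT reads against 1 and 2 KO reads. For each of the 3 circles the genotypes did not overlap, which was also true of 82.7% of all 9648 circRNAs of the cytoplasm, 49.5% being lower in KO. The WT libraries were the deeper ones here, with 77818 and 81941 junction reads against 50629 and 63335. Scaled to these totals, the genotypes of the 3 circles still did not overlap, nor did those of 82.8% of all circRNAs, 43.8% being lower in KO. Together the 3 circles took 13 and 16 WT reads against 10 and 15 KO reads, or 1.81 and 2.17 reads per 10000 junction reads as means of the genotypes. Of the Srsf1 reads in the cytoplasm, circSrsf1-1 made up 3 of 29 in WT (10.3%, exact Clopper-Pearson 95% interval 2.19% to 27.4%) and 20 of 25 in KO (80.0%, 59.3% to 93.2%). circSrsf1-4 made up 51.7% (32.5% to 70.6%) and 12.0% (2.55% to 31.2%). These intervals pool the reads of 2 libraries and treat each read as independent, which reads without molecular identifiers need not be. They leave out the spread between libraries and are no test between genotypes. Srsf1 mRNA differed by a factor of 0.918 between the same cells.

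In total RNA all 3 circles had fewer reads in KO. circSrsf1-3 was read 3 and 2 times in WT, against 1 and 1 times in KO. circSrsf4-1, the circle of exons of an NMD transcript, was read 4 and 2 times in WT, against 1 and 1 times in KO. circSrsf11-1 was read 3 and 5 times in WT, against 1 time in KO replicate 2 and not at all in KO replicate 1. None of the 3 overlapped between genotypes, as for 68.2% of the 10700 circRNAs in total RNA, 35.7% being lower in KO. Together these were 19 WT reads against 5 KO reads, or 1.68 and 0.470 per 10000 junction reads. The junction reads of all circRNAs in these libraries were of similar number, 55109 to 57780 in WT against 50341 to 58165 in KO.

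**Figure D4:**
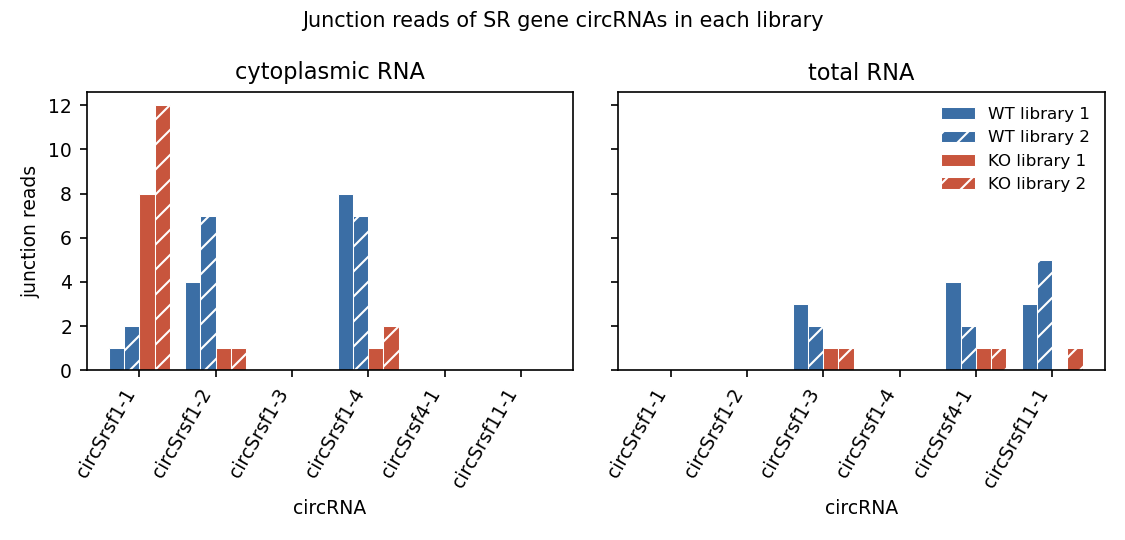
Junction reads (y axis) of the 6 SR gene circRNAs in each cytoplasmic (left) and total RNA (right) library, with WT and KO in separate colours and the replicate 2 bars hatched. circSrsf1-1 is higher in both KO cytoplasmic libraries, at 8 and 12 reads, and the other circles are lower in the KO libraries.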

How the data were processed

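Genotype, fraction and replicate came from the sample labels. The members and lists were chosen with earlier results of these data known. For mRNA, per the file headers, the authors ran featureCounts (version 2.0.0) on exons with paired reads and no strand setting and deposited the count of fragments per gene, without normalization. The submitters' processing notes name HISAT2 and mm10. For circRNAs, the authors deposited the count of find_circ junction reads per circRNA on GRCm38. Their filters are not given in the sources used here.

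FPKM was computed from the counts and the deposited exon lengths, with counted fragments as depth. Genotypes were compared with edgeR (version 4.0.16, R 4.3.3; glmQLFTest, filterByExpr, TMM) and Benjamini-Hochberg adjustment over all genes tested, with a threshold of 0.05. In simulated counts for 14426 genes of this comparison it called 49% of 1.25-fold and 100% of 2-fold changes. DESeq2 (version 1.42.0) was an alternative. Other settings were total counts as scaling, DESeq2 size factors, no filter, a replicate block, leaving out each library, TPM, effective library sizes, exon-edge circles alone and numbers of circles. Copies were sought with blastn (version 2.17.0).

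The genes named were the members, Xpo4, the 3 genes of each of the 4 lists with the largest change among those called with groups that did not overlap, and the 3 nearest to Srsf1. Srpk1, Srpk2, Krt14 and 4 fibroblast markers were added after their values were seen. 1 gene that this rule named is not reported here. Promoters came from RefSeq. 7 circRNAs with several positions were left out of the position analyses. Protein sequences were not used here.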

Additional observations from a re-analysis of the deposited data

How the results depend on the processing

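Of 110 log2 fold changes of the SR protein genes under 11 other settings, 92 kept their direction and their side of the threshold, 6 lost a call, 10 gained one and 2 turned round. The turned values were those of Srsf5, -0.0147 without WT replicate 1 and -0.00833 without KO replicate 1, in a range of -0.0147 to 0.0494 over single libraries left out. Members lower in KO numbered 5 with DESeq2 size factors in edgeR and 5 in DESeq2, and 3 to 5 without a library. Members higher in KO numbered 0 in DESeq2, and 0 to 1 without a library. NMD factors higher in KO numbered 1 in DESeq2, and 1 to 3 without a library. Leaving out a library gave 1 to 2 higher and 2 to 4 lower genes among the SR kinases, phosphatases and importer, 9 to 17 lower among SR-related proteins and 1 to 3 higher among hnRNP and PTB proteins. The lowest of these counts came without WT replicate 1 for lower kinases and higher hnRNP genes, without WT replicate 1 or 3 for lower SR-related genes, without WT replicate 2 or 3 or KO replicate 1 for higher kinases, and without WT replicate 1, 2 or 3 or KO replicate 2 for higher NMD factors. Xpo4 passed without KO replicate 2 (log2 fold change 0.34). The causes were not tested. The order of the members by level was the same with TPM, with effective library sizes and without each library, and the log2 ratio of the summed level stayed between -0.12 and -0.10 without a library.

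Same-numbered WT and KO libraries did not deviate together (r of their deviations 0.0615, 0.0359 and -0.0889), and not every library correlated best with its own number. With the replicate block, 4 members were lower and 1 was higher in KO, Srsf4 being the addition (log2 fold change -0.23). Ccng1 and Hspa9 lost their calls with the block (log2 fold changes -0.13 and -0.13), and no other named gene changed its call.

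The circRNA values rest on 78 reads in all and 2 libraries per group, and describe those libraries. Scaling reads to library totals, an alternative added after seeing the data, moved the share of circRNAs in total RNA without overlap from 68.2% to 73.2%.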
